A study of Bos taurus with 22 samples.

Results

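The 77 genes of the spliceosome and of RNA splicing regulation were described in jejunal mucosa of Holstein steers. They were the protein-coding genes of the count table whose symbol began with SNRP, SF3A, SF3B, SRSF, HNRNP or PRPF, or with LSM and a digit, and they made up 77 of 27570 genes. There were 11 SNRP, 3 SF3A, 6 SF3B, 13 LSM, 13 PRPF, 11 SRSF and 20 HNRNP genes, spread over 23 chromosomes, and all 77 passed the filter on low counts. SNRPE, the remaining component of the Sm ring, was not analysed here.

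Introns are removed from pre-mRNA by the spliceosome, which assembles on each intron from small nuclear ribonucleoproteins (snRNPs). The U1 snRNP pairs with the 5′ splice site, the U2 snRNP with the branch point, and the U4/U6.U5 tri-snRNP then joins and is rearranged into the catalytic form. A ring of Sm proteins (SNRPB, SNRPD1, SNRPD2, SNRPD3, SNRPE, SNRPF and SNRPG) holds the RNA of U1, U2, U4 and U5, and a related ring of LSm proteins holds the end of U6. SR proteins (SRSF) mostly favour the use of nearby exons, and hnRNP proteins coat nascent RNA and often act against them.

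All steers, 10 to 12 months old and 220 to 294.1 kg in body weight, received raw corn starch into the abomasum at 3.94 g per kg of body weight per day for 7 d. Steers were infused with water or with casein at 1.3 g/kg per day, and were injected with bovine serum albumin (BSA, the vehicle) or with glucagon-like peptide 2 (GLP-2, a gut hormone that promotes growth of the intestinal mucosa) at 100 µg/kg per day. The treatments were control (water and BSA, n = 5), GLP-2 (water and GLP-2, n = 5), casein (casein and BSA, n = 6) and casein + GLP-2 (n = 6), so 11 GLP-2 steers were compared with 11 BSA steers and 12 casein steers with 10 water steers. Each library came from 1 steer, and the label's replicate number is a body-weight block. The libraries held 8809666 to 28447810 counts assigned to genes (median 12028560.5).

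The samples carried enterocyte RNA, with none of the 21 villus enterocyte markers at 0 in all libraries, but their levels of cell type marker RNA differed. Summed over the marker list, villus enterocyte genes reached 34000 to 104000 CPM (counts scaled to library size) in GLP-2 steers and 4710 to 84900 CPM in BSA steers. Markers of B cell follicles, the lymphoid nodules of the gut wall, reached 44.3 to 136 CPM in GLP-2 steers and 88.0 to 3120 CPM in BSA steers, and 13 of the 14 tested fell with GLP-2. Only 4 steers were over 1000 CPM of follicle markers, and all of them had received BSA (control replicates 1, 3 and 5 and casein replicate 3). Of 18 proliferation genes 8 fell and none rose, with summed levels of 257 to 1270 CPM in GLP-2 steers and 357 to 1940 CPM in BSA steers. Of the other lists, 3 of 7 plasma cell, 1 of 10 T cell and 0 of 10 smooth muscle genes fell, and 3 of 21 villus enterocyte genes rose. Over all genes tested, 8.37% fell and 5.13% rose. In direction, 5 of 7 plasma cell, 9 of 10 T cell and 9 of 10 smooth muscle genes were lower. For villus enterocyte genes 20 of 21 were higher. The median log2 fold changes of these 4 lists were -1.685, -0.153, -1.068 and 0.927. In bulk tissue, fewer cells of a type and less RNA per cell cannot be told apart.

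Splicing factors were abundant, and their median spread over steers was below that of all genes tested. Their median level was 44.2 FPKM (fragments scaled by gene length and library size), against 7.39 FPKM for all genes tested. The highest medians were those of HNRNPA2B1 (424 FPKM), an hnRNP core protein, HNRNPA1 (286 FPKM) and HNRNPF (243 FPKM), and SRSF3 led the SR proteins (195 FPKM). The lowest were those of LSM11 (1.01 FPKM), a component of the histone U7 snRNP, SRSF12 (1.25 FPKM) and PRPF40B (1.90 FPKM), a U1-associated protein. The median SD of log2 CPM over the 22 steers was 0.317 for the members and 0.596 for all genes tested. By family it ran from 0.269 (HNRNP) to 0.451 (SNRP), and genes of matched level were not compared.

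With GLP-2, 22 of the 77 splicing factors fell and none rose (edgeR quasi-likelihood test, Benjamini-Hochberg adjusted p of at most 0.05). That was 28.6% of the members, where 8.37% of the 13928 genes tested fell and 5.13% rose. At an adjusted p of at most 0.10, 32 members were lower, where the background was 14.2%, and 1, HNRNPUL2, was higher. The direction was lower for 66 of 77 members (85.7%, against 49.3% of all genes), with a median log2 fold change of -0.25 against 0.01 for all genes. Members took 1.24% ± 0.208 of the counts in BSA libraries and 1.00% ± 0.165 in GLP-2 libraries (SD, n = 11 each).

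The count of 22 was sensitive to the fit: leaving out any of 11 of the 22 steers singly lowered it by more than 1.5 times. With the body-weight block in the fit, 3 members (PRPF19, SNRPA1 and LSM3) remained lower, with 2.43% of all genes lower. The sizes moved little under the block: the members' median was -0.22 and that of the SNRP genes -0.57 (log2 fold change). In either direction, 35 members had an unadjusted p of at most 0.05 against 37 without the block (edgeR). Without it 36 members were lower and 1 higher at that p, where 18.1% of all genes were lower and 16.5% higher. With the 4 follicle-rich BSA steers left out, no member passed, the smallest adjusted p among members was 0.32, and no gene of the whole table passed. In that comparison of 11 GLP-2 with 7 BSA steers, 61 of 77 members were still lower in direction, with a median log2 fold change of -0.16. An unadjusted p of at most 0.05 (edgeR) was reached by 17 members in either direction. The share of all genes at that p was not taken for the fits with the block or with steers left out. With the B cell follicle score of each steer as a covariate, again no member and no gene passed, and the median was -0.09. With control replicate 1, control replicate 3 or casein + GLP-2 replicate 3 left out singly, 4 of the 77 members passed. Of all genes tested, 3.54%, 3.14% and 3.2% were lower in those fits. PRPF19, LSM3, SNRPA1 and LSM6 passed in each of the 22 fits that left out 1 steer.

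**Figure D1:**
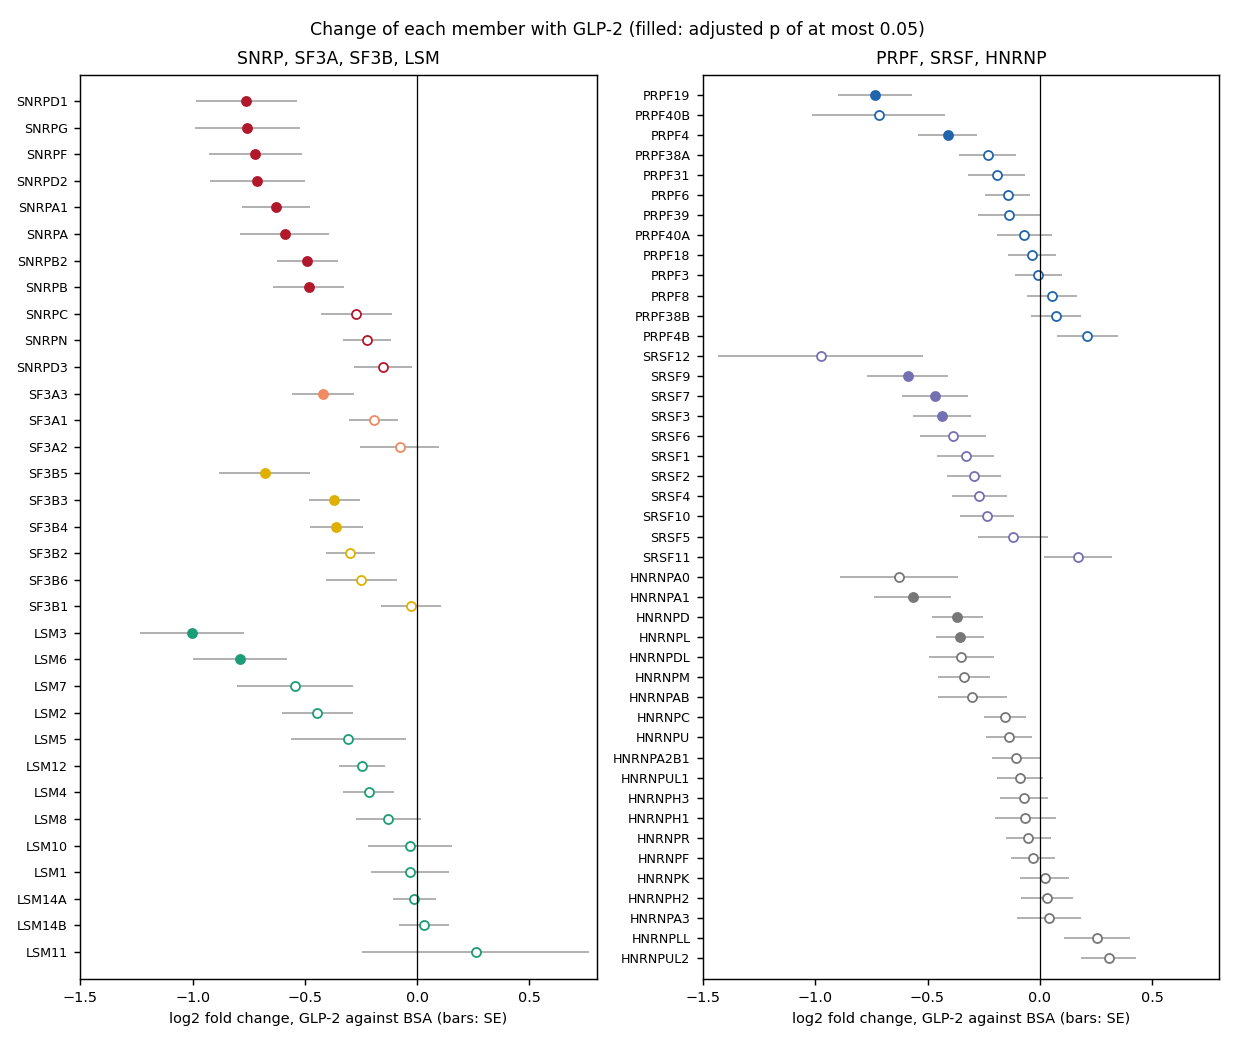
Log2 fold change of GLP-2 against BSA steers for each of the 77 members (x axis), ordered by size within each family (y axis), with bars for the standard error and filled points for members that fell. Filled points lie from -1.003 (LSM3) to -0.36 (HNRNPL), and 8 of the 11 SNRP genes are filled against 3 of the 20 HNRNP genes.

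The SNRP family, the core and specific proteins of the U snRNPs, had the lowest median. Of the 11 SNRP genes, 8 fell (72.7%, against 8.37% of all genes tested). All 11 were lower in direction, with a median log2 fold change of -0.59. Of the 7 Sm genes, counting SNRPN, which can take the place of SNRPB in the ring, 5 fell with GLP-2: SNRPD1 (-0.76 ± 0.22), SNRPG (-0.76 ± 0.23), SNRPF (-0.72 ± 0.21), SNRPD2 (-0.71 ± 0.21) and SNRPB (-0.48 ± 0.16), each log2 fold change ± SE. SNRPD3, the Sm gene with the highest level (median 95.1 FPKM), stood at -0.15 ± 0.13 (adjusted p = 0.407), and SNRPN, the imprinted copy of SNRPB, at -0.22 ± 0.11 (adjusted p = 0.14). The SNRPD3 gene overlaps GUCD1, which was at 200 CPM, on the other strand.

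SNRPA1 and SNRPB2, the U2-specific proteins that bind the stem loop of U2 RNA, both fell. SNRPA1 (ENSBTAG00000013593, chromosome 21, 29153369 to 29166386, build ARS-UCD1.2) was at 37.1 to 51.6 CPM in GLP-2 steers (median 44.4) and 39.3 to 111 CPM in BSA steers (median 59.7). The groups overlapped, but all 11 GLP-2 steers lay below the BSA median. Its log2 fold change was -0.63 ± 0.15 (edgeR, adjusted p = 0.0218). SNRPB2 was at 23.4 to 44.3 CPM (median 41.8) with GLP-2 and 33.6 to 84.3 CPM (median 57.7) with BSA, a log2 fold change of -0.49 ± 0.14 (adjusted p = 0.0283). Of the U1-specific proteins, SNRPA fell (-0.59 ± 0.20) and SNRPC was at -0.27 ± 0.16 (adjusted p = 0.223).

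The SF3a and SF3b complexes anchor U2 at the branch point, and 4 of their 9 genes fell, where 8.37% of all genes tested fell. SF3A3 was the only gene of SF3A that fell (-0.42 ± 0.14), SF3A1 was at -0.19 ± 0.11 (adjusted p = 0.212), and SF3A2 at -0.08 ± 0.17 (adjusted p = 0.768). The sign of SF3A2 turned to 0.15 with the follicle covariate, 0.057 without the 4 follicle-rich steers and 0.055 without control replicate 3. SF3B5, a small subunit, fell most among the SF3B genes (-0.68 ± 0.20, adjusted p = 0.0334), from a median of 117 CPM in BSA steers to 80.1 CPM in GLP-2 steers. SF3B3, the scaffold of the complex, and SF3B4, which contacts RNA next to the branch point, also fell (-0.37 ± 0.11 and -0.36 ± 0.12). SF3B1, the subunit that holds the branch point adenosine, differed by -0.03 ± 0.13 (adjusted p = 0.894). SF3B3 overlaps COG4 on the other strand, which was at 60.0 CPM.

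In the LSM family 2 of the 13 genes fell (15.4%, against 8.37% of all genes tested). Both were listed in the U6 ring, and the difference from the other LSm genes was not tested. RNA levels do not show which ring a protein was part of. All 7 genes of the U6 ring were lower in direction, with a median log2 fold change of -0.45, and 2 of them fell. LSM3 (ENSBTAG00000007363, chromosome 22, 58031643 to 58038810) was at 14.5 to 36.6 CPM in GLP-2 steers (median 25.2) and 19.9 to 90.4 CPM in BSA steers (median 51.8). The 4 highest BSA values were control replicate 1, casein replicate 1, control replicate 3 and casein replicate 3, and all 11 GLP-2 values were below the BSA median. Among the 77 members its fitted change was the largest in size, with a log2 fold change of -1.003 ± 0.23 (edgeR, adjusted p = 0.0202) and a fitted ratio of 0.499.

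LSM6 was at 17.2 to 37.7 CPM with GLP-2 (median 26.5) and 25.2 to 92.0 CPM with BSA (median 40.0). The highest BSA steer was casein replicate 2 and the lowest GLP-2 steer was casein + GLP-2 replicate 3. Its log2 fold change was -0.79 ± 0.21 (edgeR, adjusted p = 0.0246). LSM2 (-0.45 ± 0.16, adjusted p = 0.0575) and LSM4 (-0.22 ± 0.11, adjusted p = 0.177), the ring gene with the highest level, did not pass. Outside the U6 ring, none of the 6 LSM genes passed. LSM1, listed for the cytoplasmic decay ring, was at -0.03 (edgeR, adjusted p = 0.907). LSM11 had a log2 fold change of 0.26 ± 0.51 (adjusted p = 0.734) at levels of 0 to 2.43 CPM.

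PRPF genes encode proteins of several spliceosome steps, and 2 of the 13 fell (15.4%, against 8.37% of all genes tested). PRPF19 (ENSBTAG00000014366), the ubiquitin ligase of the Prp19 complex that stabilises the activated spliceosome, is on chromosome 29 (37223625 to 37233385). It was at 32.7 to 61.9 CPM in GLP-2 steers (median 46.5) and at 45.1 to 130 CPM in BSA steers (median 76.3). All 11 GLP-2 steers were below the BSA median, and 5 were below every BSA steer. Its log2 fold change was -0.73 ± 0.17 (edgeR, adjusted p = 0.0202). PRPF4, of the U4/U6 snRNP, fell by less (-0.41 ± 0.13, adjusted p = 0.0438).

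The large tri-snRNP proteins showed values near 0: PRPF8, the core of U5, at 0.05 ± 0.11, PRPF3 at -0.01 ± 0.11 and PRPF6 at -0.14 ± 0.10. PRPF4B, a kinase, was at 0.21 ± 0.14 (adjusted p = 0.266), and PRPF38B, the family's gene with the highest level, at 0.07 ± 0.11 (adjusted p = 0.658). PRPF40B was at -0.72 ± 0.30 (adjusted p = 0.0953) and overlaps FMNL3 on the other strand, which was at 51.3 CPM.

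Of the 11 SR protein genes 3 fell (27.3%, against 8.37% of all genes tested), and 10 of 11 were lower in direction (median -0.33). SRSF3, which also takes part in mRNA export, was at 132 to 204 CPM with GLP-2 (median 159) and 161 to 318 CPM with BSA (median 219), and fell by 0.44 on the log2 scale (SE 0.13, edgeR, adjusted p = 0.0331). SRSF9 fell (-0.59 ± 0.18, adjusted p = 0.0366), as did SRSF7, an export adaptor (-0.47 ± 0.15, adjusted p = 0.0418). SRSF7 was uneven within treatments, with casein replicate 1 the highest library and casein + GLP-2 replicate 1 the lowest. SRSF12 was at -0.98 ± 0.46 (adjusted p = 0.133) at 0.282 to 7.98 CPM, and SRSF11, the one SR gene in the other direction, was at 0.17 ± 0.15 (adjusted p = 0.437).

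Among the 20 HNRNP genes 3 fell (15%, against 8.37% of all genes tested), and the family median was -0.10. HNRNPA1, which binds exonic silencers, was at 304 to 684 CPM with GLP-2 (median 494) and 420 to 1068 CPM with BSA (median 768). All GLP-2 steers were below the BSA median although the groups overlapped. Its log2 fold change was -0.57 ± 0.17 (edgeR, adjusted p = 0.036). HNRNPL, which binds CA-rich RNA, and HNRNPD, which binds AU-rich elements, fell by 0.36 and 0.37 on the log2 scale. HNRNPA2B1 was at -0.11 ± 0.10 (adjusted p = 0.482). HNRNPUL2 was at 0.31 ± 0.12 (adjusted p = 0.0869) and HNRNPLL at 0.26 ± 0.15 (adjusted p = 0.217), and the sign of HNRNPLL turned to -0.041 with the follicle covariate.

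**Figure D2:**
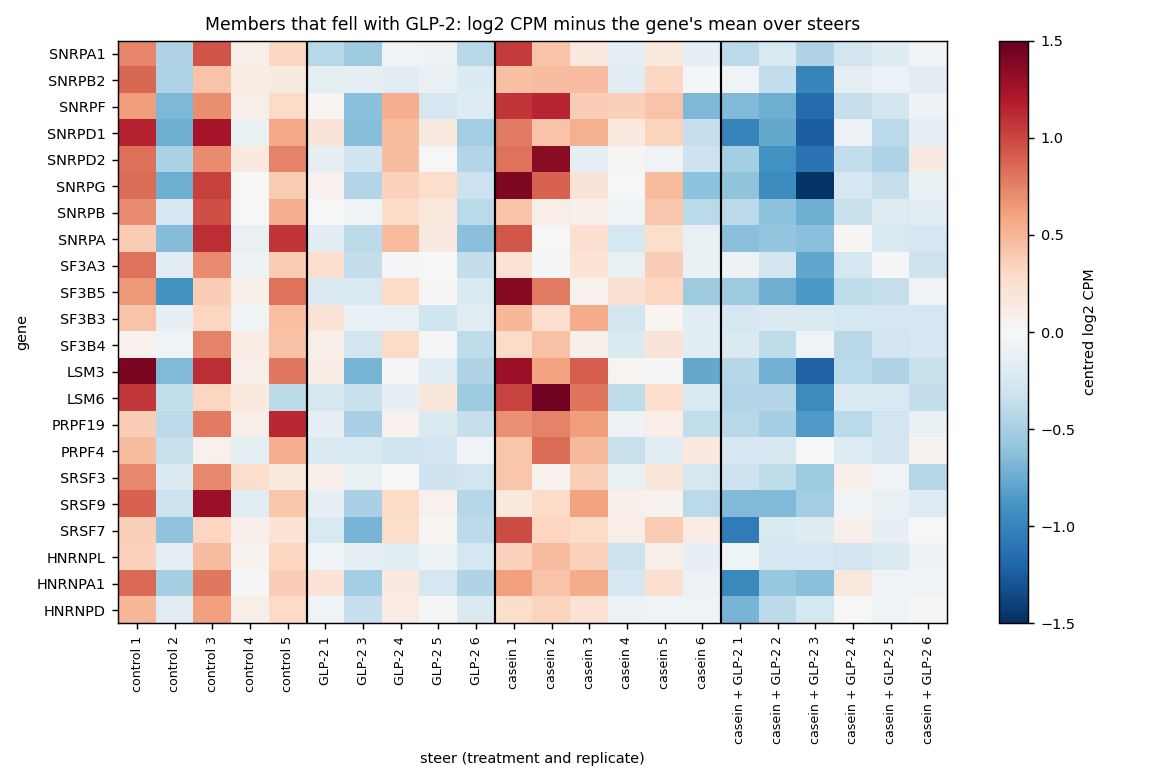
Log2 CPM of the 22 members that fell with GLP-2 (rows, by family), each centred on its mean over the 22 steers (columns, by treatment), with red for higher and blue for lower values. Control replicates 1 and 3 and casein replicate 1 are red for nearly every gene, control replicate 2 is blue, and casein + GLP-2 replicate 3 holds the darkest blue.

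Of the 22 members that fell, 14 had all 11 GLP-2 steers below the BSA median, and the fewest was 9 of 11. The 22 were called from these same steers, so these counts describe them and add no test. None of the 77 members had every GLP-2 steer below every BSA steer. Control replicate 2 had low levels of many of them, with 39.3 CPM of SNRPA1, 21.4 CPM of LSM3 and 45.1 CPM of PRPF19, and its follicle markers summed to 89.3 CPM. Casein replicate 1 was high in many (111 CPM of SNRPA1 and 83.1 CPM of LSM3) with follicle markers at 267 CPM. Its other marker lists summed to 1431 (proliferation), 3787 (plasma cell), 795 (smooth muscle), 708.5 (T cell) and 10500 CPM (villus enterocyte). In control replicate 2 the same lists summed to 367.8, 322.4, 87.34, 2093 and 84930 CPM. These steers were picked after their levels were seen. In GLP-2 replicate 1, proliferation, plasma cell and smooth muscle markers summed to 1271, 2429 and 1022 CPM. That steer had 40.5 CPM of SNRPA1 and 36.6 CPM of LSM3. The part of cell makeup in the levels of the splicing factors was not tested. The fits without the follicle-rich steers and with the follicle covariate cannot separate it from the injection. All 4 steers over 1000 CPM of follicle markers had received BSA.

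**Figure D3:**
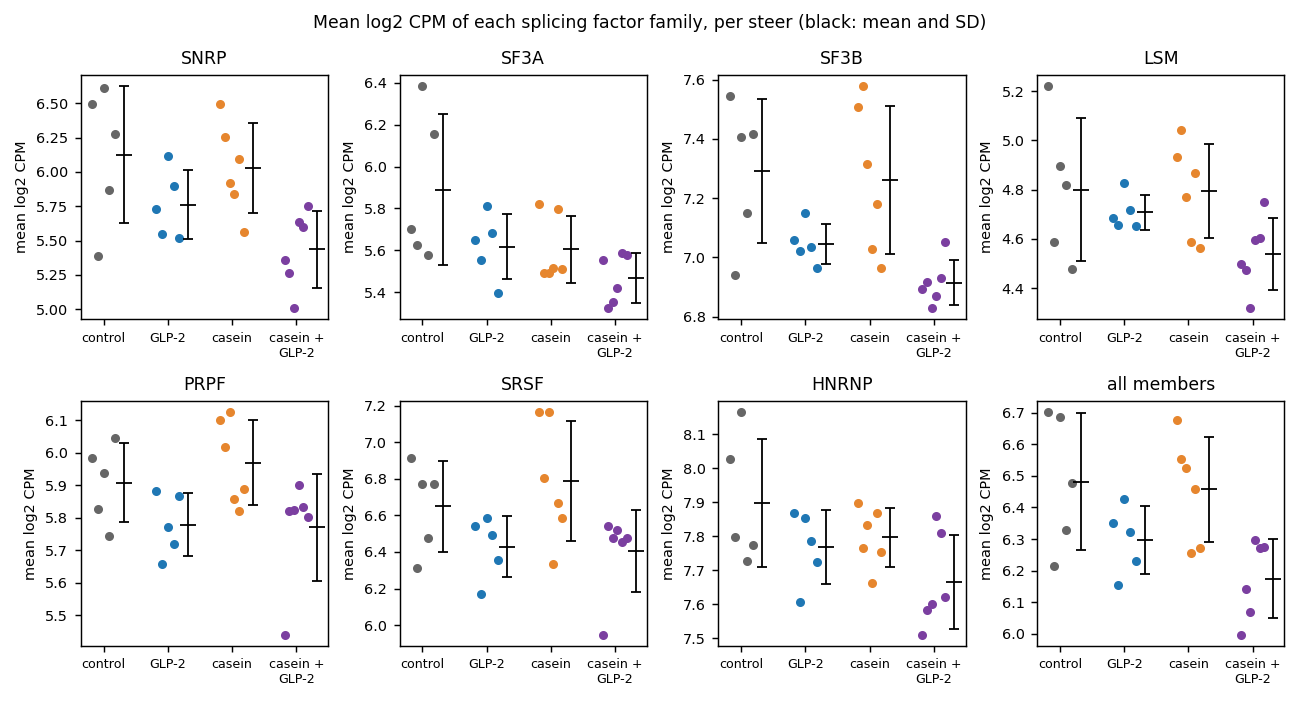
Mean log2 CPM of each family's genes and of all 77 members (y axes) in every steer, by treatment (x axis), with black bars for the mean and SD. In the SNRP panel the BSA treatments average 6.13 (control) and 6.03 (casein), and the GLP-2 treatments 5.76 (GLP-2) and 5.44 (casein + GLP-2).

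Most members were lower with GLP-2 under both infusions, but none passed the threshold in either pair alone. For GLP-2 against control, no member passed (smallest adjusted p 0.229, edgeR), and 13 were lower and 0 higher at an unadjusted p of at most 0.05, where the background was 8.35% lower and 5.59% higher of 15086 genes. For casein + GLP-2 against casein, no member passed (smallest adjusted p 0.118), and 30 were lower and 1 higher, where the background was 14.2% lower and 9.88% higher. The DESeq2 Wald test called 9 members lower in the latter pair and 0 in the former. The share of all genes that it called in these pairs was not taken. In the pooled comparison of GLP-2 with BSA it called 12.4% of all genes lower. LSM3 had log2 fold changes of -0.94 ± 0.35 on water and -1.06 ± 0.32 on casein, and PRPF19 of -0.70 ± 0.25 and -0.76 ± 0.23. SNRPF had -0.33 ± 0.30 and -1.06 ± 0.28, and SF3B5 -0.37 ± 0.30 and -0.96 ± 0.27.

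These pairs of treatments share no steers. Of the 77 members, 53 (68.8%) were lower in both, against 35.6% of all genes. Across members the log2 fold changes of the pairs had a Pearson r of 0.613 and a Spearman rho of 0.648, against 0.498 and 0.533 across all genes, and genes are not independent replicates. The casein by GLP-2 interaction called no member (smallest adjusted p 0.996, edgeR), and no member had an unadjusted p of at most 0.05.

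**Figure D4:**
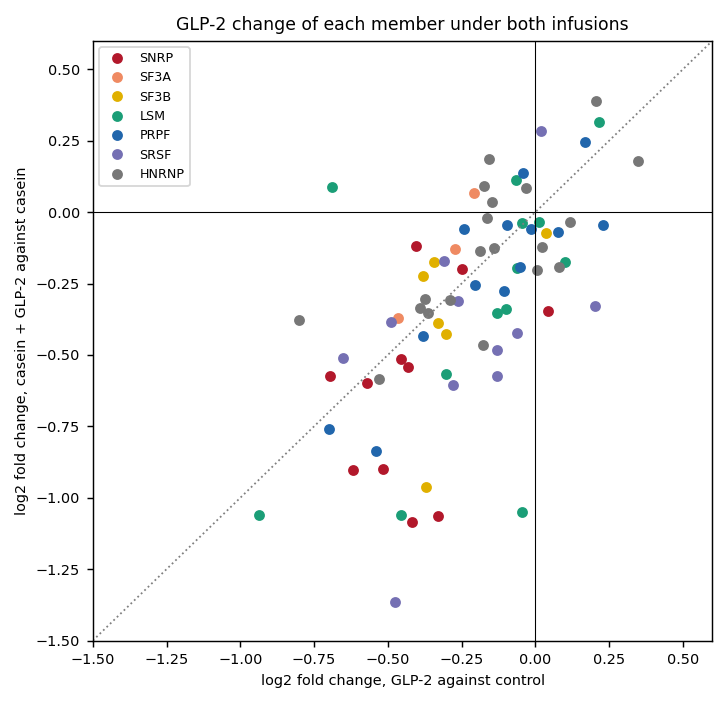
Log2 fold change of GLP-2 against control (x axis) and of casein + GLP-2 against casein (y axis) for the 77 members, colored by family, with the line of equal change dotted. The lower left holds 53 points, and the lowest SNRP points lie below the dotted line.

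No splicing factor passed the test for casein against water (0 of 77, smallest adjusted p 0.994, edgeR; DESeq2 also called 0). At an unadjusted p of at most 0.05, 4 members were lower and 1 higher, where 1.84% of 14096 genes were lower and 1.53% higher. The median log2 fold change was -0.10. It was above 0 in SRSF (0.14, 9 of 11 genes higher in direction) and PRPF (0.06, 7 of 13). HNRNPA0 had the lowest value (-0.77) and SRSF5 the highest (0.37).

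Short genes held more of the members that fell. Under 1000 bases 6 of 12 members fell, where 12.9% of all genes of that length fell. In the classes starting at 1000, 1500 and 2500 bases, 8 of 18, 7 of 18 and 1 of 29 members fell, where 11%, 9.51% and 6.06% of all genes did. Across members the log2 fold change and log10 gene length had a Pearson r of 0.456 and a Spearman rho of 0.444, against 0.107 and 0.133 over all genes. With gene length corrected in each steer, 29 members were lower and none higher, and the share of all genes called lower went from 8.37% to 13.2%. The part of gene length in the difference between families was not tested. The study reported that RNA integrity varied among its samples. Its value per steer was not available here, and its part in the length pattern was not tested.

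**Figure D5:**
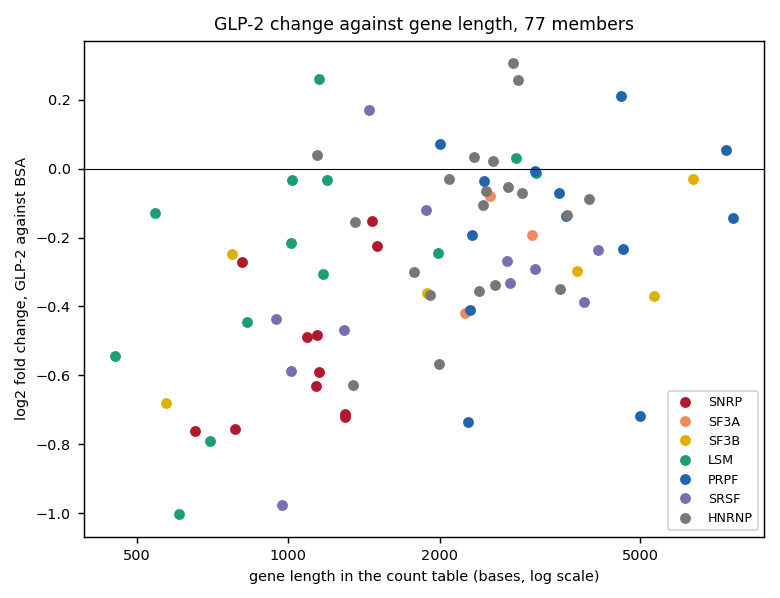
Log2 fold change of GLP-2 against BSA (y axis) against gene length on a log scale (x axis) for the 77 members, colored by family. SNRP genes, at 653 to 1502 bases, lie at the left and low, and HNRNP genes, at 1143 to 3952 bases, mostly lie nearer 0.

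Other genes of the pathway were also among those that fell. Of 121 tested genes outside the families, 19 fell and none rose, which was 15.7% against 8.37% lower and 5.13% higher among all genes (median -0.13 against 0.01). The called genes included SNU13 (-0.80 ± 0.16), which binds U4 RNA, PPIH (-0.89 ± 0.21), a cyclophilin of the tri-snRNP, and ALYREF (-0.85 ± 0.18), the mRNA export adaptor. Of 16 other snRNP proteins 5 fell, of 16 genes of 3′ splice site recognition 4, and of 10 exon junction complex genes 2. Of 30 catalytic step genes 4 fell, 13.3% of the list, with 15 of 30 lower in direction and a median of -0.0038. Sm ring assembly factors were lower in direction in 13 of 13 genes, and 3 fell: CLNS1A (-0.58 ± 0.13) and WDR77 (-0.78 ± 0.22), which prepare Sm proteins for loading, and DDX20 (-0.49 ± 0.13) of the SMN complex. No splicing kinase of 7 passed, and 1 of 29 other regulators fell, SFPQ (-0.40 ± 0.10).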

How the data were processed

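Total RNA of jejunal mucosa from 22 steers was sequenced by the authors from poly(A)-selected, strand-specific libraries. Per the labels, the processing notes name HISAT2 2.0.5, StringTie 1.3.3b, featureCounts 1.5.0-p3, DESeq2 1.20 and build ARS-UCD1.2, and the strand setting of counting is not given in the sources used here. The deposited values were raw read counts per gene and FPKM, which the authors made from those counts. Columns of the authors' own comparisons were not used.

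Genes passing filterByExpr (minimum count 10) were tested with edgeR 4.0.16 (R 4.3.3), TMM normalization and the quasi-likelihood test, adjusted by Benjamini-Hochberg over all genes tested. Pooled comparisons (GLP-2 against BSA, casein against water) and a model of the 4 treatments were fitted, and log2 CPM used a prior count of 2. SE is the log2 fold change divided by the square root of F. Alternatives used DESeq2 1.42.0, limma 3.58.1 on log2(FPKM + 1) or log2(FPKM + 0.1), other normalizations and filters, a block term, a loess correction for gene length (span 0.3), a follicle covariate and fits without single steers. In addition, 3 sets of steers were left out as alternatives chosen after seeing the data.

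The labels call the replicate number a block. Deviations from treatment means correlated by a mean of 0.0331 over 30 same-block pairs and -0.00641 over 151 pairs of different blocks and treatments. P-values rest on separate steers. The members and gene lists were chosen with earlier results of these data known. Named were, per family, the 3 smallest p, the smallest p in the direction opposite to most of the family, and the highest and lowest mean FPKM. Other members and pathway genes were named after their values were seen. Of 15 members that overlap another gene, 8 overlap a protein-coding gene on the other strand and 2 on the same strand. SNRPG, SNRPF and HNRNPA1 have unnamed copies that could share their reads.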

Additional observations from a re-analysis of the deposited data

Results flagged for a closer look

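Within treatments, 8 of 160 sets of values (the named members and family levels in each treatment) held a steer far from the others by Dixon's test, which flags about 1 in 20 sets by chance. Casein + GLP-2 replicate 3 had the lowest log2 CPM of SNRPB2 (4.56, others 5.18 to 5.47) and of LSM6 (4.11, others 4.63 to 4.86). Casein + GLP-2 replicate 1 had the lowest PRPF38B (5.71, others 6.40 to 6.76), SRSF7 (6.23, others 7.05 to 7.35), PRPF family level (5.44, others 5.80 to 5.90) and SRSF family level (5.95, others 6.46 to 6.54). Casein replicate 1 had the highest SRSF7 of its treatment (8.26, others 7.38 to 7.66), and GLP-2 replicate 4 the highest LSM2 (4.72, others 4.32 to 4.42).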

How the results depend on the processing

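The direction of the GLP-2 result held in the median of the members under each alternative, and its count did not. Against 22 members lower, the count was 12 with no filter on low counts, 3 with the replicate block, 10 with the block and the gene length correction, and 0 with the follicle covariate. The shares of all genes called lower in those fits were 4.44%, 2.43%, 5.95% and 0%, against 8.37% in the main fit. The count was also 0 in each of 3 fits chosen after seeing the data. They left out the 4 follicle-rich BSA steers, the 2 with most follicle markers, or casein replicate 1 and casein + GLP-2 replicate 1. The 2 with most follicle markers were casein replicate 3 and control replicate 3. Without them the smallest adjusted p was 0.0682 (edgeR), the members' median log2 fold change was -0.27, and 65 of 77 were lower in direction. An unadjusted p of at most 0.05 (edgeR) was reached there by 36 members in either direction. Without casein replicate 1 and casein + GLP-2 replicate 1, the smallest adjusted p was 0.0562 (edgeR) and the median -0.235. In those 4 fits at 0 no gene of the whole table passed. The count was 18 to 29 under the other normalizations, filters and tools, where 5.93% to 13.2% of all genes were lower. Leaving out 1 steer gave 4 to 27 members lower and 0 to 1 higher, where 3.14% to 13% of all genes were lower. The count of members lower was 4 without control replicate 1, control replicate 3 or casein + GLP-2 replicate 3. It was 6 without casein replicate 1 or GLP-2 replicate 6, and 7 without casein + GLP-2 replicate 1 or GLP-2 replicate 3. It was 8 without casein + GLP-2 replicate 2 or control replicate 5, 11 without casein replicate 2, and 14 without casein + GLP-2 replicate 5. The DESeq2 Wald test gave 9 members lower for casein + GLP-2 against casein. With edgeR, GLP-2 against control gave 0 to 2 lower when 1 steer was left out (2 without control replicate 2). The shares of all genes called in these fits of single pairs were not taken. SF3A2 turned to 0.146 with the follicle covariate, 0.057 without the 4 follicle-rich steers and 0.055 without control replicate 3 (range without 1 steer -0.167 to 0.055), and HNRNPLL to -0.041 with the covariate. Lower genes made up 62.0% of calls over all genes, 79.9% with the length correction, 49.1% with the block and 42.2% with limma on log2(FPKM + 1). The cause of these changes was not tested.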

Other observations

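The table held 5 further genes without a symbol whose description names a member. The copy described as small nuclear ribonucleoprotein G had a mean of 119 counts per library, 2 copies of heterogeneous nuclear ribonucleoprotein A1 had 39.5 and 11.1, the copy described as small nuclear ribonucleoprotein F-like had 12.4, and the copy of heterogeneous nuclear ribonucleoproteins A2/B1 had 3.36.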
